A study of Mus musculus with 21 samples.

Results

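Described here are 6 membrane carriers of organic anions, thyroid hormone and prostaglandins in mouse endothelium: Slco1a4, Slco1c1, Slc22a8, Slco2b1, Slco2a1 and Slco3a1. They were taken by name from a table of 24176 gene symbols, and all 6 were among the 13216 genes with enough counts to test. The groups were endothelial cells of brain, of lung and of liver, each from C57BL/6J mice 2 to 4 months old, with 3 bulk RNA libraries per tissue and, for brain, 1 single-cell library. No genotype or treatment separated the groups. After perfusion with saline and enzymatic digestion, cells were sorted that bore CD31 and lacked PDGFRβ (a pericyte marker), CD45 (a blood cell marker) and a dead-cell stain, and only brain went through a myelin removal step, so that step and the tissue cannot be told apart.

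Bulk libraries held between 2992101 counts (lung library 2) and 25690571 counts (liver library 2). All 8 endothelial markers, such as Pecam1 and Cdh5, were detected in each tissue, with summed levels of 5236 to 12330 CPM, a gene's counts scaled to its library's total. The 9 liver sinusoidal markers summed to at least 23560 CPM in liver, 935 to 1240 CPM in lung and at most 55.5 CPM in brain. The 8 lung endothelial markers summed to at least 9886 CPM in lung, 2458 to 3193 CPM in liver and at most 420.3 CPM in brain. No animals are named for the libraries, which the labels present as biological replicates; the p-values therefore rest on library-to-library spread alone, part of which may be technical. In these bulk values, fewer cells of a type and less RNA per cell cannot be told apart.

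Organic anion transporting polypeptides, the Slco family, carry amphipathic anions such as bile acids, conjugated steroids, thyroid hormones, prostaglandins and many drugs across plasma membranes without spending ATP, while Slc22 carriers such as Slc22a8 exchange organic anions for dicarboxylates. At the blood-brain barrier such carriers stand beside ATP-driven pumps. Slco1c1 is known for bringing thyroxine into the brain, Slco1a4 and Slc22a8 for moving drugs and conjugated steroids between brain and blood, and Slco2a1 for taking up prostaglandins ahead of their breakdown.

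Slco1c1 and Slco1a4 lie in 1 cluster of related genes on chromosome 6, in the order Slco1c1, Slco1b2, Gm5724, Slco1a4, Slco1a1, Gm6614, Slco1a6 and Slco1a5 in the RefSeq gene table (GRCm38.p6). Slco2b1 and Slco3a1 are on chromosome 7, Slco2a1 is on chromosome 9 and Slc22a8 on chromosome 19. Promoter windows from RefSeq (GRCm38.p6, 250 bases before an annotated start) matched 5 of the 6 genes, with 7 windows. Those of Slco1c1 (chr6:141524104-141524353, plus strand) and Slco1a4 (chr6:141856285-141856470, minus strand) are printed because both genes were high in brain and near or at 0 elsewhere, and that of Slco2b1 (chr7:99711341-99711590, minus strand) because its level was shared by brain and liver. For Slco1a4 the record begins upstream of the start that defines the window, so 186 of its 250 bases are printed. Each reads 5′ to 3′ and stops where the gene record begins, and capitals mark the match to the SOX letters described after them.
Slco1c1: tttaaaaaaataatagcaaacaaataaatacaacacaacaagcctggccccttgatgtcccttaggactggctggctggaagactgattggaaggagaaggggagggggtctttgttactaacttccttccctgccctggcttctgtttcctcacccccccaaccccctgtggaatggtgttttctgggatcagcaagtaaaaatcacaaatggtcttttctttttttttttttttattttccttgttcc
Slco1a4: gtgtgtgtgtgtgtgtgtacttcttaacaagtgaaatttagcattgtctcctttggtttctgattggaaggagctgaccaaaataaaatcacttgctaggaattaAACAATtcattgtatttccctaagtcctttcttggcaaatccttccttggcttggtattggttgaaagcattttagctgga
Slco2b1: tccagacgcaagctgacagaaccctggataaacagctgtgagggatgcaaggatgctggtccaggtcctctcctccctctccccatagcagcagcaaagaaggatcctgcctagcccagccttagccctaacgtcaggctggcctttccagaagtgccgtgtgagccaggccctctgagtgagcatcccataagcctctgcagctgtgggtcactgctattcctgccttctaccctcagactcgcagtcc

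All 250 bases of each window, printed or not, were searched on both strands for 5 short motifs, none of which contains another. The SOX letters AACAAT occurred in 1 of the 7 windows, that of Slco1a4, where it begins 145 bases before the start, against 9.42% of 32851 promoter windows of that length. ETS letters, CCGGAA, were found in 1 window, a further annotated start of Slco2b1 that is not printed (12% of all windows), and the TATA box, TATAAA, in that of Slco2a1 (12.4% of all). The LEF/TCF letters CTTTGAT (3.21% of all windows) and the forkhead letters TGTTTAC (3.17%) occurred in 0 of the 7. These are matches of letters in windows, printed or not, and binding at them was not tested.

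Among the carriers, 3 were high in brain and at or near 0 in both other tissues, 1 was high in brain and variable in liver, and 2 were lowest in brain. Slco1a4, which carries bile acids, conjugated steroids and drugs, had 4988, 4124 and 4364 CPM in the 3 brain libraries and 0 counts in each of the 6 lung and liver libraries. Slc22a8, which carries organic anions such as conjugated hormones and drugs, had 602, 887 and 783 CPM in brain and again 0 counts in all lung and liver libraries. For both genes every brain library was far above a group without a single count. Set against a floor of 3 counts over a group's libraries, which covers counting error only, Slco1a4 was at least 31800-fold higher in brain than in lung and at least 101000-fold higher than in liver. Slc22a8 was at least 5360-fold and at least 17100-fold higher.

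**Figure D1:**
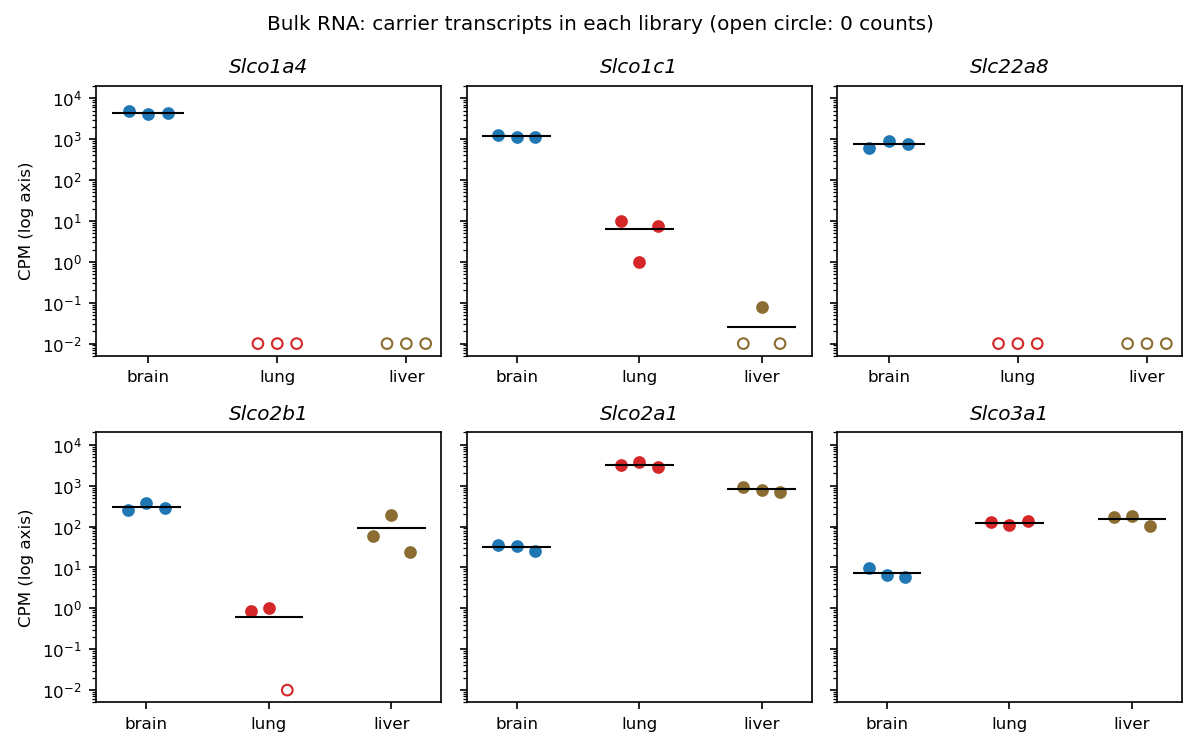
Level of each carrier in each bulk library, with 1 panel per gene, tissue on the x axis and CPM on a log y axis; filled points are libraries, bars are means of 3 libraries, and open circles at the bottom are libraries with 0 counts. Slco1a4, Slco1c1 and Slc22a8 sit at 602 CPM or more in every brain library, Slco2a1 and Slco3a1 are lowest in brain, and the Slco2b1 points of liver spread from 23.5 to 188 CPM.

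Slco1c1, the thyroxine carrier, was high in brain as well but was not at 0 in lung. Its brain libraries had 1292, 1137 and 1155 CPM, its lung libraries 10.2, 1.00 and 7.65 CPM, and its liver libraries 0, 0.0779 and 0 CPM, where the single nonzero value is 2 counts in liver library 2. The 3 tissues did not overlap, with brain highest, lung in between and liver at the edge of detection. Means were 1195 ± 84.5 and 6.28 ± 4.74 CPM for brain and lung (SD, n = 3), a log2 fold change of 7.55 (SE 0.65, edgeR quasi-likelihood, BH-adjusted p = 6.63e-06). From the pooled counts, brain exceeded liver 40100-fold (95% counting interval 11100 to 331000) and lung exceeded liver 272-fold (74.2 to 2260), both resting on those 2 counts.

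Slco2b1, a carrier of steroid sulfates and drugs, divided the tissues in another way. It had 252, 370 and 292 CPM in brain, 0.884, 1.00 and 0 CPM in lung and 58.1, 188 and 23.5 CPM in liver. Brain libraries were all above the liver libraries, but liver library 2 came near the lowest brain library while liver library 3 was far below it. Against lung the log2 fold change was 9.03 (SE 1.12, edgeR adjusted p = 0.00027), and liver was above lung as well, with a lung to liver log2 fold change of -7.60 (SE 1.07, edgeR adjusted p = 0.000611). Against liver the log2 fold change of 1.43 (SE 0.75) did not pass the test (edgeR adjusted p = 0.244), and without liver library 2 it was 2.84 (SE 0.61, edgeR adjusted p = 0.00642).

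Liver library 2, the highest for Slco2b1, was the lowest of the liver libraries in the 9 hepatocyte markers (577, 259 and 724 CPM in the order of the libraries, with all 9 detected) and in the 9 microglia and macrophage markers (1994, 1644 and 1881 CPM, most of it Mrc1, which sinusoidal endothelium also expresses, with Cx3cr1 at 0). In brain, the order of the libraries for Slc22a8 and Slco2b1 was not that of Slco1a4: library 2 was highest and library 1 lowest for both. The 8 choroid plexus epithelium markers had that same order, at 192, 1744 and 563 CPM with none at 0, and their part in the level of either carrier was not tested.

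Slco2a1, the prostaglandin transporter, ran opposite to the barrier carriers. Lung libraries had 3163, 3771 and 2820 CPM, liver libraries 954, 783 and 690 CPM and brain libraries 35.6, 33.8 and 25.0 CPM. No tissue overlapped with another: lung was highest, liver in the middle and brain lowest. The 8 lung epithelium markers summed to 375, 1838 and 681 CPM in the lung libraries, with library 2 highest as for Slco2a1, and to at most 26.5 CPM elsewhere; their part in its level was not tested. The brain to lung log2 fold change was -6.65 (SE 0.27, edgeR adjusted p = 7.2e-09), brain to liver -4.89 (SE 0.25, edgeR adjusted p = 3.79e-08) and lung to liver 1.77 (SE 0.22, edgeR adjusted p = 0.000105).

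Slco3a1, for which prostaglandins and thyroxine are known substrates, was low in brain but did not separate lung from liver. It had 9.87, 6.69 and 5.78 CPM in brain, 126, 108 and 138 CPM in lung and 167, 180 and 105 CPM in liver. All brain libraries lay below all others, and lung and liver libraries overlapped. The log2 fold change was -4.01 between brain and lung (SE 0.41, edgeR adjusted p = 2.05e-05), -4.58 between brain and liver (SE 0.42, edgeR adjusted p = 4.44e-06) and -0.57 between lung and liver (SE 0.36, edgeR adjusted p = 0.336). The 8 mural cell markers summed to 33.6, 107 and 170 CPM in the brain libraries, with none at 0, the reverse of the order of Slco3a1. The part of mural cells in its brain level was not tested.

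A gene was called where its edgeR adjusted p was under 0.05 and its absolute log2 fold change was at least 1. Between brain and lung, 4 of the 6 carriers were called higher in brain, against 5.05% of all genes tested, and 2 lower, against 7.25% (12.3% in either direction). Between brain and liver, 3 were called higher (background 7.45%) and 2 lower (background 8.72%), or 16.2% of all genes in either direction. Between lung and liver, Slco1c1 and Slco2a1 were called higher in lung (background 8.04%) and Slco2b1 lower (background 7.02%), with 15.1% of all genes in either direction. Slco1a4, Slco1c1 and Slc22a8 were called higher in brain against both tissues, as were 2.41% of genes tested, and Slco2a1 and Slco3a1 lower against both, as were 3.31%. Libraries did not overlap for 6 carriers between brain and lung (33.8% of all genes), 6 between brain and liver (33.2%) and 3 between lung and liver (34.5%). Each tissue enters 2 of these comparisons, so they share libraries. The carriers were chosen with earlier results of these data known, so the all-gene shares are given for scale and do not test the list. For genes at 0 in a tissue the fitted fold is not given; the adjusted p of Slco1a4 was 1.78e-08 against lung and 1.25e-08 against liver, and that of Slc22a8 was 5.84e-07 and 1.29e-07 (edgeR).

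**Figure D2:**
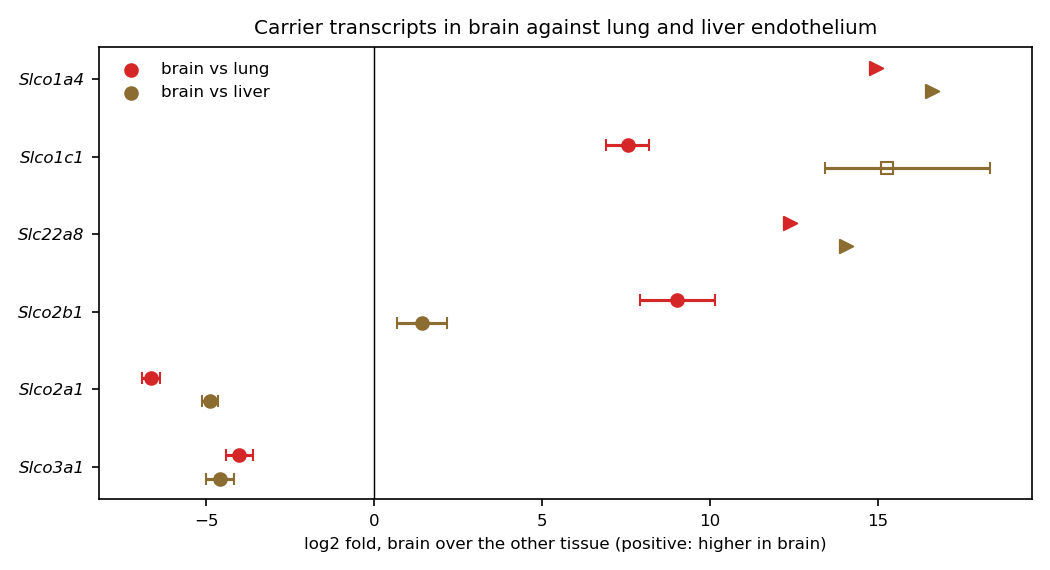
Log2 fold of each carrier in brain over lung and over liver on the x axis, with 0 as a line; points are edgeR estimates with bars of 1 SE, triangles are lower bounds against a floor of 3 counts, and the open square with its 95% counting interval is the pooled-count ratio of Slco1c1 over liver. Slco1a4, Slco1c1 and Slc22a8 lie right of 0 in both comparisons, Slco2a1 and Slco3a1 left of 0 in both, and Slco2b1 is at 9.03 against lung and 1.43 against liver.

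Of the 15 listed Slco family genes, 8 had enough counts to test, 5 of them described above. For medians, genes at 0 in a tissue were set to their bound, and genes with at most 3 counts in both tissues were left out. The latter held for Slco1a4 and Slco1a5 between lung and liver. The median log2 fold change was then 3.83 between brain and lung, 2.42 between brain and liver and 0.6 between lung and liver. With fitted values of all 8 in place of bounds, the lung to liver median was 0. Under the same rule as the list, the medians over the genes tested were -0.006, 0.018 and -0.003. Medians of the other lists are on the same footing. Of the other 3, none was called between brain and lung, and Slco1a5, a neighbour of Slco1a4 that carries bile acids, was called higher in brain than in liver (edgeR adjusted p = 0.0372). Its mean was 2.40 ± 1.56 CPM in brain (SD, n = 3), with no count in lung or liver, so brain exceeded liver at least 54-fold. Reads of near-identical neighbours in that cluster can be split between genes by counting, so the level of Slco1a5 beside a gene at 4492 CPM is uncertain. Slco1b2, a liver-type member of the cluster, had 2.92 ± 2.44 CPM in brain and 1.82 ± 2.36 CPM in liver (SD, n = 3). Of 25 Slc22 genes 7 were tested, with medians of 0.96, 0.83 and -0.48 in the same comparisons. Without Slc22a8 they were 0.24, 0.28 and -0.48. The last left out Slc22a8 in either case, since it had no count in lung or liver. Besides Slc22a8, Slc22a21 was higher in brain than in lung (17.7 and 0.237 CPM, edgeR adjusted p = 0.0404) and Slc22a23 lower (3.25 and 286 CPM, edgeR adjusted p = 7.3e-05).

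Genes of thyroid hormone handling were read from a list of 20, of which 15 were tested, Slco1c1 among them. Between brain and lung 4 were higher, Slco1c1 and Ttr among them, and 2 lower, with a median log2 fold change of -0.15. Slc7a5, an amino acid carrier that also takes thyroid hormone, had 1211, 12.7 and 50.3 CPM in brain, lung and liver, and its partner Slc3a2 287, 328 and 109 CPM in the same order. Slc7a5 was called higher in brain against both tissues, and Slc3a2 against liver alone. The retinoid X receptor Rxra was lower in brain than in lung and than in liver (17.0, 55.7 and 95.1 CPM, edgeR adjusted p = 0.0433 and 0.00242). Dio2, which converts thyroxine to its active form, had 0 counts in brain and lung and 2 in liver. Ttr, a thyroid hormone binding protein made by choroid plexus epithelium and hepatocytes, ranged from 46.1 to 961 CPM over the brain libraries and had 0 counts in lung. Between brain and liver 4 of the 15 were higher and 2 lower (median 1.15), and between lung and liver 3 and 4 (median 0.35). Without Slco1c1, 14 genes remained, of which 3 were higher in brain than in lung, 3 higher in brain than in liver and 2 higher in lung than in liver, and the lung to liver median was -0.11.

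Prostaglandin genes were read from a list of 27 with 22 tested, which includes Slco2a1, Slco3a1 and Slc22a8. Between brain and lung 3 were higher and 5 lower (median log2 fold change -0.19), between brain and liver 5 and 5 (median -0.17), and between lung and liver 3 and 2 (median 0.14, or -0.18 with fitted values in place of bounds). Without these 3 carriers 19 genes remained, with 2 higher and 3 lower between brain and lung (median -0.15). Between brain and liver the numbers were then 4 and 3 (median 0.01), and between lung and liver 2 and 2 (median 0.14). Hpgd, which breaks down prostaglandins after uptake, had the same order of tissues as Slco2a1: 655 ± 258 CPM in lung, 249 ± 61.3 in liver (SD, n = 3) and 0 counts in brain, at least 12100-fold lower in brain than in lung. Ptgs1, the constitutive cyclooxygenase, had 13.5, 77.2 and 514 CPM in brain, lung and liver and was lower in brain against both (edgeR adjusted p = 0.00785 and 3.01e-05). Pla2g4a, which frees arachidonic acid, was higher in brain against both (50.6, 0.203 and 0.935 CPM, edgeR adjusted p = 0.000473 and 0.00117). Ptgs2, the inducible cyclooxygenase, averaged 47.4 ± 7.05 CPM over the brain and 12.4 ± 8.19 over the lung libraries (SD, n = 3) with 0 counts in liver, and was called higher in brain against liver alone. The receptor Ptger4 had 4.65, 5.31 and 1.77 CPM and was not called in any comparison.

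ATP-driven pumps that share substrates with the carriers were read from a list of 12 efflux genes with 10 tested. Between brain and lung 4 were higher and 1 lower (median log2 fold change 0.93), between brain and liver 4 and 2 (median 0.94), and between lung and liver 2 and 1 (median 0.31). Abcc4, which exports conjugated steroids and prostaglandins, had 738 ± 143 CPM in brain, 16.8 ± 11.3 in lung and 156 ± 32.6 in liver (SD, n = 3). Abcb1a, the main drug pump of the barrier, had 1380, 76.99 and 7.00 CPM, and Abcg2, which exports sulfated conjugates and drugs, 262, 21.9 and 14.3 CPM. All 3 were called higher in brain against both tissues. Abcc3, an exporter of glucuronides, was without a count in brain and stood at 114 CPM in lung and 16.9 CPM in liver. Among 22 xenobiotic receptors and conjugating enzymes 13 were tested. Against lung, brain had 2 higher and 4 lower (median -0.72), against liver likewise 2 and 4 (median 0.1), and between lung and liver the numbers were 4 and 2 (median 0.004). The glutathione transferase Gsta4 was among the higher in both brain comparisons (55.4 CPM in brain, 1.20 in lung and 0 counts in liver), and the receptor Ahr among the lower (27.7, 248 and 214 CPM).

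Genes with the most similar pattern were ranked by Pearson correlation of log2(CPM + 1) over the 9 libraries, among 7947 genes with a mean of at least 10 CPM. The points fall into 3 tissues, so a high value mainly says that 2 genes share the order of tissues. Among the leading 3 genes for Slco1a4 were Slc22a8 (r = 0.9991) and Zic2 (0.9991), and among those for Slc22a8 were Zic2 (0.9994) and Slco1a4. Zic2, which encodes a zinc finger transcription factor, averaged 158 CPM over the brain libraries, with no count in lung or liver. For Slco1c1 the leading genes were Lef1 (0.9981), a transcription factor of Wnt signalling, Isyna1 (0.9946) and Ebf1 (0.9943), and Lef1 stood at 565, 7.22 and 0.807 CPM in brain, lung and liver. Slco2b1 had no gene above 0.99, and Tead1 came nearest (0.9761), followed by Cdkn1c (0.9685) and Rhobtb1 (0.9634). Slco2a1 was led by the transcription factor Tbx2 (0.9951), then Sema3f (0.9921) and Tnxb (0.9895), and Slco3a1 by Mlxip (0.9932), Tmem2 (0.9917) and Zfp710 (0.9891).

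The single-cell library resolved the brain endothelium by vessel type. It held 9405 barcodes and 45602016 UMIs (unique molecular identifiers), with a median of 4393 UMIs per barcode. After leaving out barcodes with at least 5% hemoglobin, at least 20% mitochondrial UMIs or under 3 of 8 endothelial markers, 8850 remained. A cell entered a class with at least 2 markers of it and more than of any other class: 664 cells were arterial, 7506 capillary, 193 venous and 101 fenestrated, a type found where brain vessels lack a barrier. Each class is a range rather than a type, and 198, 511, 60 and 43 of these cells led by 1 marker only. The lists held 10 arterial, 8 capillary, 10 venous and 5 fenestrated markers. A cell with 5 or more capillary markers could therefore not be called fenestrated. Median depths were 6268, 4276, 4971 and 4523 UMIs. With 1 library there is no test, and the 95% intervals given (exact Poisson or binomial) cover counting error only.

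In the marker classes, Slco1a4, Slco1c1 and Slc22a8 were highest in capillary cells and far lower in fenestrated cells. Slco2b1 was alike in capillary and venous cells within counting error. Slco1a4 had 15.99 UMIs per 10000 (15.6 to 16.4) in arterial cells, 36.9 (36.7 to 37.1) in capillary cells, 25.8 (24.8 to 26.8) in venous cells and 0.688 (0.471 to 0.971) in fenestrated cells. The 240 barcodes with at least 50% hemoglobin, red cells that should lack the gene, held 2.39 per 10000 at a median depth of 7822 UMIs, found in 56 of them; they also held the 8 endothelial markers at a summed 11.1 per 10000. In 28 barcodes with mural markers and few endothelial ones the level was 0.796 (0.424 to 1.36). The fenestrated value was not above either of these, while the 3 other classes were above both. The 6 erythroid markers, hemoglobin genes among them, made up 8934 of every 10000 UMIs in the red cell barcodes. This lowers the level of any other gene there, so those barcodes and the vessel classes are not on the same footing. Capillary cells exceeded arterial cells 2.31-fold (2.25 to 2.37), venous cells 1.43-fold (1.38 to 1.49) and fenestrated cells 53.7-fold (38.0 to 78.5). These ratios depend on the marker rule, which keeps cells with more capillary markers out of the other classes. From the fenestrated class it keeps out any cell with 5 or more of them. In clusters found without the carriers, those named capillary held 43.0 and 47.0 per 10000 and the fenestrated cluster 3.797. Those named arterial held 26.5 and 9.45, and the venous cluster 30.3.

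Slco1c1 differed from Slco1a4 in where it was low. Its levels were 14.9 per 10000 (14.5 to 15.2) in arterial, 20.5 (20.4 to 20.7) in capillary, 6.92 (6.42 to 7.44) in venous and 0.28 (0.149 to 0.478) in fenestrated cells, with 1.52 in red cell barcodes. Arterial cells held 2.15 times (1.99 to 2.32) the level of venous cells, whereas for Slco1a4 arterial cells held 0.62 times (0.593 to 0.648) the venous level. In these marker classes the order of arterial and venous cells was thus opposite for the 2 carriers. Among clusters found without the carriers, the arterial range was wide: 583 arterial cells held 22.7 per 10000 of Slco1c1 and 480 held 9.81, on either side of the 11.2 of the venous cluster. Clusters named capillary held 19.0 and 25.5, so the arterial cluster of 583 cells lay between them. The fenestrated cluster held 3.797 per 10000 of Slco1a4, 2.26 of Slco1c1 and 0.419 of Slc22a8, all above the red cell barcodes on this scale. The order of fenestrated cells and red cell barcodes thus changed with how the cells were chosen. Because most UMIs of the red cell barcodes were erythroid, neither order decides whether fenestrated cells exceeded a background.

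Slc22a8 had 0.955 (0.864 to 1.05), 3.77 (3.71 to 3.84), 2.71 (2.41 to 3.05) and 0.086 (0.0234 to 0.22) per 10000 in arterial, capillary, venous and fenestrated cells, and 0.195 in red cell barcodes. Capillary cells exceeded arterial cells 3.95-fold (3.58 to 4.37), a ratio that depends on the marker rule as well. Clusters named arterial held 1.77 and 0.557 per 10000, and those named capillary 5.15 and 5.31. In the 28 barcodes with at least 4 of 8 mural markers and few endothelial ones, Slc22a8 stood at 2.39 per 10000 (1.70 to 3.27), in 21 of the 28, where Slco1a4 was at 0.796 and Slco1c1 at 0.184. Those 28 barcodes held 39 of the 14516 Slc22a8 UMIs of the library, and the endothelial barcodes 14314.

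Unlike Slco1a4, Slco1c1 and Slc22a8, Slco2b1 in fenestrated cells kept 0.659 (0.518 to 0.828) of its capillary level. It had 0.684 (0.607 to 0.768), 2.45 (2.39 to 2.50), 2.40 (2.11 to 2.72) and 1.61 (1.27 to 2.02) per 10000 in the same order, and 0.19 in red cell barcodes. Capillary and venous cells were within counting error of each other (ratio 1.02, 0.899 to 1.16), fenestrated cells stood 2.36-fold (1.80 to 3.05) above arterial cells, and arterial cells were lowest. In the mural barcodes it had 0 UMIs, which by the limit of 3 counts allows up to 0.184 per 10000 (exact upper limit 0.226).

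**Figure D3:**
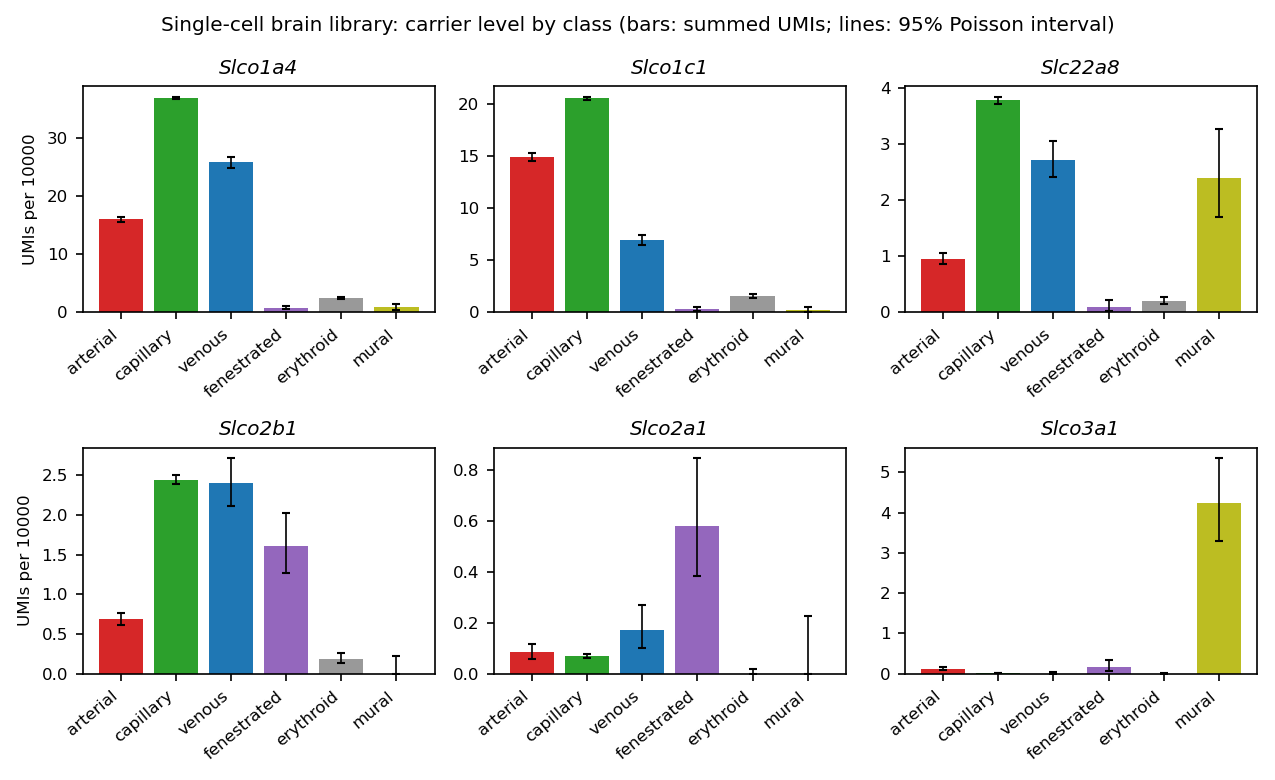
UMIs per 10000 of each carrier in the single-cell brain library by class, 1 panel per gene with its own y axis from 0; bars are summed UMIs, lines are exact 95% Poisson intervals, erythroid marks barcodes with at least 50% hemoglobin and mural the 28 mural barcodes with few endothelial markers. Capillary bars are tallest for Slco1a4, Slco1c1 and Slc22a8, capillary and venous bars are alike for Slco2b1, the tallest bar is the fenestrated bar for Slco2a1, and the mural bar, at 4.23, for Slco3a1.

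The prostaglandin carriers were scarce in these brain cells, as in bulk. Slco2a1 had 0.0831 (0.0579 to 0.116), 0.0694 (0.0609 to 0.0787), 0.171 (0.101 to 0.27) and 0.581 (0.383 to 0.845) per 10000 in arterial, capillary, venous and fenestrated cells and 0 UMIs in 240 red cell barcodes. The fenestrated level, from 27 UMIs in 20 of 101 cells, was 8.37-fold (5.41 to 12.5) the capillary level and 3.40-fold (1.80 to 6.55) the venous level. Capillary cells, being most numerous, still held 243 of the 352 Slco2a1 UMIs (69.0%). Slco3a1 had 50 UMIs in arterial cells (0.119 per 10000, 0.0881 to 0.157), 22 in 7506 capillary cells (0.00628, 0.00394 to 0.00951), 0 in 193 venous cells and 8 in fenestrated cells (0.172, 0.0743 to 0.339). The 28 mural barcodes held 69 of its 160 UMIs, a level of 4.23 per 10000 (3.29 to 5.35), in 23 of 28. Without barcodes holding a mural marker UMI, an alternative chosen after seeing the data, the arterial level of Slco3a1 was 0.114 and the capillary level 0.00193 per 10000. Without barcodes holding a UMI of any other cell type the arterial level was 0.0573, and in the clusters found without the carriers the capillary level of Slco2a1 was 0.0212.

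Within the capillary class the carriers shifted by degree. Cells were divided, after values were seen, into 1802 with arterial markers, 4064 with few of either and 1501 with venous markers; the remaining 139, with as many of both, are not described further. Slc22a8 was at 2.75, 4.05 and 4.59 per 10000 across these, Slco2b1 at 1.95, 2.73 and 2.55, and Slco1a4 at 32.9, 39.8 and 36.9. Slco1c1, at 21.1, 21.1 and 18.5, and Slco2a1, at 0.111, 0.0529 and 0.0401, were lower in the venous-marked than in the arterial-marked cells. The ratio of venous-marked to arterial-marked capillary cells was 1.67 (1.59 to 1.75) for Slc22a8, 1.31 (1.23 to 1.39) for Slco2b1, 1.12 (1.103 to 1.137) for Slco1a4, 0.875 (0.857 to 0.893) for Slco1c1 and 0.363 (0.24 to 0.536) for Slco2a1. The median depths of the 3 divisions were 5560, 3388 and 5212 UMIs.

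**Figure D4:**
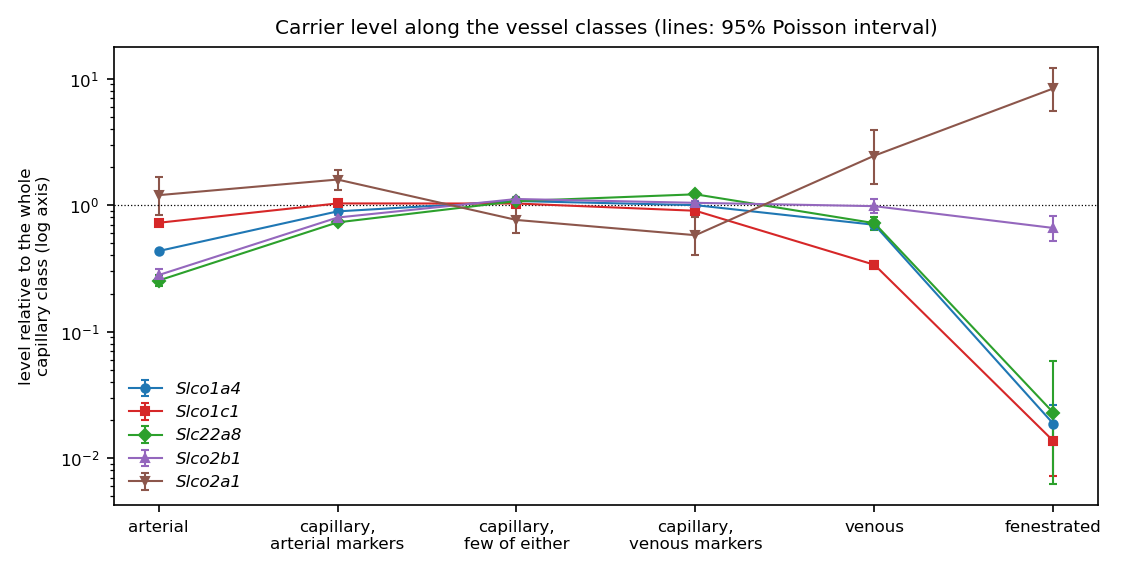
Level of 5 carriers along the vessel classes on the x axis, relative to the whole capillary class at 1 (log y axis), with exact 95% Poisson intervals; Slco3a1 is left out because capillary cells held 22 of its UMIs. Slco1a4, Slco1c1 and Slc22a8 fall to under 0.03 in fenestrated cells, Slco2b1 stays at 0.659 and Slco2a1 is at 8.37.

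Shares of cells with a UMI were compared after thinning each cell to 2000 UMIs, leaving out 38 arterial, 1186 capillary, 33 venous and 17 fenestrated cells and 29 red cell barcodes. Slco1a4 was then found in 72.0%, 98.1%, 94.4% and 11.9% of arterial, capillary, venous and fenestrated cells (86.1%, 98.9%, 96.4% and 25.7% unthinned), against 17.1% of red cell barcodes (23.3% unthinned). Slco1c1 was found in 76.8%, 93.8%, 56.2% and 5.95% (86.7%, 97.1%, 74.6% and 12.9% unthinned), against 16.6% (26.2%). In these classes the fenestrated share of either carrier was not above that of the red cell barcodes. Slc22a8 was found in 18.7%, 49.8%, 40.0% and 3.57% (33.1%, 69.9%, 66.8% and 2.97% unthinned), against 1.90% (8.33%). Slco2b1 was found in 13.6%, 38.0%, 38.8% and 29.8% (29.2%, 58.3%, 57.0% and 42.6% unthinned), against 3.32% (9.17%), so here the fenestrated share was above it. Erythroid UMIs count within the 2000, so red cell barcodes had far fewer left for other genes. Their shares are therefore not at the depth of the vessel classes. Slco2a1 was found in 7.14% of fenestrated cells (2.67% to 14.9%) and 0.965% of capillary cells (19.8% and 2.39% unthinned), and in 0 of 211 red cell barcodes, which by the limit of 3 counts allows up to 1.42% (exact upper limit 1.73%). Slco3a1 was found in 2.24% of arterial cells and 0.0791% of capillary cells (4.97% and 0.187% unthinned), again with 0 of 211.

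At that depth, 20.3% of 6320 capillary cells held a UMI of all 4 of Slco1a4, Slco1c1, Slc22a8 and Slco2b1, and 43.7% held 3 of them. Among arterial cells the most frequent number was 2 (43.1% of 626), and 15.6% held none. Venous cells were nearer to capillary cells, with 9.38% of 160 holding 4 and 34.4% holding 3. No fenestrated cell of 84 held 3 or more, and 56.0% held none. Among 211 red cell barcodes 77.2% held none, at a lower depth for genes other than the erythroid ones.

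**Figure D5:**
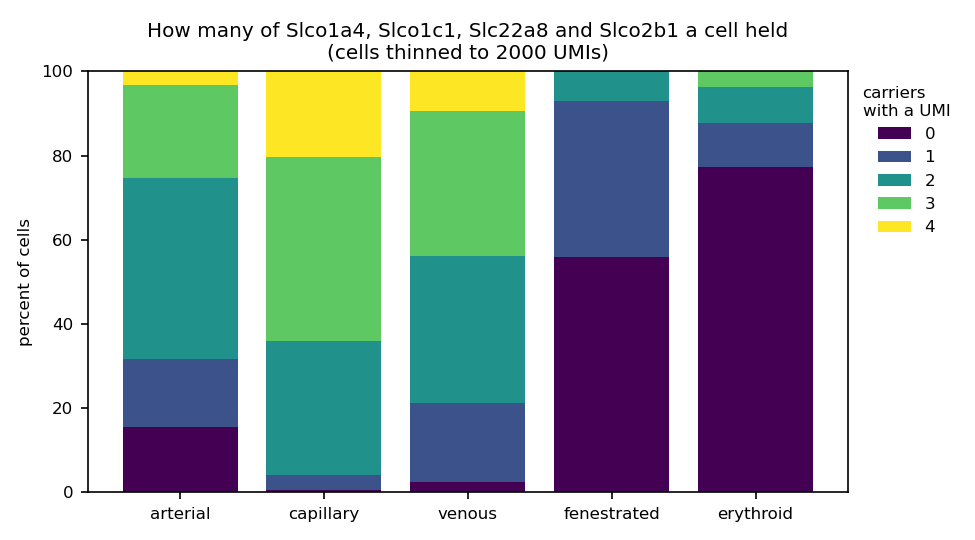
Percent of cells (y axis) by how many of Slco1a4, Slco1c1, Slc22a8 and Slco2b1 had a UMI after thinning each cell to 2000 UMIs, stacked by class; erythroid marks barcodes with at least 50% hemoglobin. Cells with 3 or 4 of the carriers make up most of the capillary bar and none of the fenestrated bar.

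Partner genes in the same cells placed the carriers beside the rest of their pathways. Slc7a5 was at 0.439, 2.98, 1.84 and 0.086 per 10000 in arterial, capillary, venous and fenestrated cells, the capillary-led order of Slc22a8. Abcb1a had 10.5, 15.7, 14.2 and 1.01 and Abcg2 6.00, 13.3, 13.5 and 5.91 per 10000, so that Abcg2 in fenestrated cells was near its arterial level, where Slco2b1 was above its own. Abcc4 had 2.14, 2.28, 1.93 and 0.495. Ptgs1, like Slco2a1, was highest in fenestrated cells (2.99 per 10000, against 0.0131 in capillary cells), Ptgs2 was highest in venous cells (9.71, against 0.0591), and Hpgd had 15 UMIs in all 7506 capillary cells and 0 in fenestrated cells.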

How the data were processed

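For bulk RNA the authors deposited a table of raw counts by gene symbol, so named in its header, and for single cells a matrix of UMI counts by gene and barcode. Cell Ranger 1.2.0, HTSeq 0.6.1, TopHat and Bowtie2 are among the tools, and mm10 and mm9 the builds, that the submitters' processing notes name without tying them to an assay; no source used here gives the strand setting. The ATAC table was not used here.

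CPM was taken over each library's total. Tests used edgeR 4.0.16 in R 4.3.3 on the counts of all 9 libraries (filterByExpr, TMM, robust quasi-likelihood fit, Benjamini-Hochberg over 13216 genes); the biological coefficient of variation was 0.766. DESeq2 1.42.0 was an alternative. The fit was tested on simulated data. No doublet caller was run. Bulk levels of different genes are not compared, since transcript lengths were not at hand. Genes without a member's name were taken from fixed lists: per list, comparison and direction up to 4 called genes with the largest fold, part of which the text gives, and 10 partner genes in every case; some named by this rule are not reported here. The carriers and lists were chosen with earlier results of these data known. Clusters of cells found without the carriers (leidenalg 0.10.2) were an alternative to the marker classes.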

Additional observations from a re-analysis of the deposited data

How the results depend on the processing

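All carriers kept their direction under every alternative run. The calls held as well, except that Slco2b1 between brain and liver passed without liver library 2, and did so again without both that library and lung library 2 (log2 2.83, edgeR adjusted p = 0.00973; chosen after seeing the data); over the 9 fits that left out 1 library it ranged from 0.94 to 2.84. The number of carriers called in those fits was 6 between brain and lung, 5 to 6 between brain and liver and 3 between lung and liver, and 3 to 4 were higher in brain against both. All genes called numbered 1625, 2137 and 1991 in these comparisons, and 1108 to 1957, 1683 to 2131 and 1312 to 1978 with 1 library left out, the lowest without lung library 2, brain library 3 and lung library 3. DESeq2 called 2595 between brain and lung and 2994 between lung and liver, and without lung library 2 and liver library 2 edgeR called 1239 between lung and liver. With no scaling beyond library size, the all-gene median shifted by 0.16 (log2) for brain over liver and by 0.21 for lung over liver, and the share of lung over liver calls that were higher went from 53.4% to 64.8%.

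Deviations from the tissue means correlated at -0.003 to 0.078 between same-numbered libraries and at -0.07 to 0.055 between others. Of the 9 libraries, 4 fitted best with their own number. With 3 libraries per tissue, these values cannot decide whether same-numbered libraries share an animal. With the replicate block edgeR called 1440, 1870 and 1660 genes and 6, 5 and 3 carriers, and Slco2b1 between brain and liver had a log2 fold change of 2.11 (edgeR adjusted p = 0.053).

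In the single-cell library 4 of 6 carriers had their highest level in capillary cells under all 7 alternatives, although for Slco2b1 capillary and venous cells were within counting error and the venous share after thinning was 38.8% against 38.0%. Clusters found without the carriers named 161 cells fenestrated, 100 of them shared with the marker class, but only 1795 capillary, against 7506 by markers. Most of the rest lay in unnamed clusters, of which the largest, of 1306 cells, had Slco1a4 at 24.2 per 10000, below the venous cluster (30.3) and 1 arterial cluster (26.5). Of the levels by class under all these alternatives 113 stayed within counting error and 55 did not. Without barcodes holding any UMI of another cell type, which left 1136 barcodes, fenestrated cells had 0 UMIs of Slco1c1 and Slc22a8. Depth limits Slco2a1 and Slco3a1, which had 350 and 85 UMIs over 8850 endothelial barcodes.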
